A study of Mus musculus with 16 samples.

Results

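The comparison described here asks whether an shRNA against c-Fos changes the response of cultured mouse cortical neurons to 6 h of KCl. It uses 8 of the 16 arrays of the series, with 2 arrays in each of 4 groups: c-Fos shRNA with KCl for 6 h, c-Fos shRNA at 0 h, control shRNA with KCl for 6 h, and control shRNA at 0 h. The 8 arrays were taken by their labels, with no measured value. For each gene the measure is an interaction: the log2 change between 6 h and 0 h with c-Fos shRNA minus the log2 change between 6 h and 0 h with control shRNA. A negative interaction therefore means that the KCl change was lower, or less positive, in neurons carrying c-Fos shRNA, and a positive one that it was higher. In all 4 groups the neurons came from embryonic day 16.5 cortices of C57BL/6 mice, received lentivirus on day 5 in vitro for 6 h with polybrene at 6 µg/ml, and were silenced on day 7 before KCl. The control shRNA targets firefly luciferase, a gene that mouse cells lack. The labels name a single c-Fos shRNA and do not say which share of the cells took up the virus. They describe same-group arrays as biological replicates but give no separate dissections or cultures, so a p-value here reflects array-to-array spread, which may be partly technical.

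c-Fos, the product of Fos, is an immediate early protein that pairs with Jun proteins to form the AP-1 transcription factor, which binds the TPA response element in promoters and enhancers. High KCl depolarises neurons and opens voltage-gated calcium channels, and the calcium signal first induces transcription factors such as Fos, Egr and Nr4a proteins and later secreted and synaptic effectors. Jun, Fosb, Fosl1, Fosl2 and Atf3 encode further bZIP proteins, several of which can take part in AP-1 dimers.

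Fos itself, as the shRNA target, was examined first. Its deposited intensity, a linear value per probe set and array, was 3142 and 3340.0 with c-Fos shRNA at 6 h and 118 and 152 with c-Fos shRNA at 0 h. With control shRNA it was 11960.4 and 11898 at 6 h and 261 and 232 at 0 h. Both c-Fos shRNA arrays lay below both control arrays at each time, and the groups did not overlap. Fos rose with KCl in both arms, by 4.45 on the log2 scale in the c-Fos shRNA arm and 5.52 in the control arm. As ratios of the deposited group means, 6 h over 0 h, Fos was 24.03-fold higher in the c-Fos arm and 48.5-fold higher in the control arm. The interaction was -1.08 ± 0.14 (log2 ± SE, limma adjusted p = 0.00578). The c-Fos shRNA arm is thus one of reduced and not absent Fos mRNA.

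Of 13915 genes tested, 172 (1.24%) passed the threshold for a call, a Benjamini-Hochberg adjusted p (limma) under 0.05. Of these, 109 genes (0.783% of those tested) had a lower KCl response with c-Fos shRNA, and 63 (0.453%) a higher one. The lower responses were also larger in size: the median called interaction was -0.832 among the 109 and 0.614 among the 63, and 39 lower against 5 higher ones reached a 2-fold difference between the arms. The median over all genes tested was 0.0094. At an unadjusted p under 0.05, 1949 genes passed, 924 lower and 1025 higher. Changes are on the scale of log2(intensity + 16) after quantile normalization, which understates the changes of dim genes. An interaction is a difference between such changes, so the constant can make it smaller or larger. With 1 and with 64 added, Atf3 was at -1.94 and -1.45, and Fos at -1.01 and -1.21. With the arrays shifted to one median in place of quantile normalization, 104 genes were called lower and 33 higher.

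The count rests on how the spread between arrays is handled. Arrays with the same replicate number deviated together, and the fit above leaves this pairing out. With the number as a block the lean towards lower calls was not seen. There 1582 genes were called, 784 of them lower (5.63%) and 798 higher (5.73%), including all of the 172. Leaving out any of the 8 arrays moved the count by over 1.5 times the other way, to between 40 (without control shRNA 0 h replicate 1) and 95 (without control shRNA 0 h replicate 2). There were 32 genes called whichever array was left out, among them Fos, Emp1, Cav1, Vgf, Egr3, C2cd4b, Ang, Slc16a6, Lipg, Trim36, Grasp, Ndrg1, Met, Klf9, Cdkn1a, Lrrtm3, Lztfl1, Ppil4 and Tubb3. When only these 8 arrays entered the fit, 13 genes were called, all of them lower, and each kept the direction it had with 16 arrays.

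**Figure D1:**
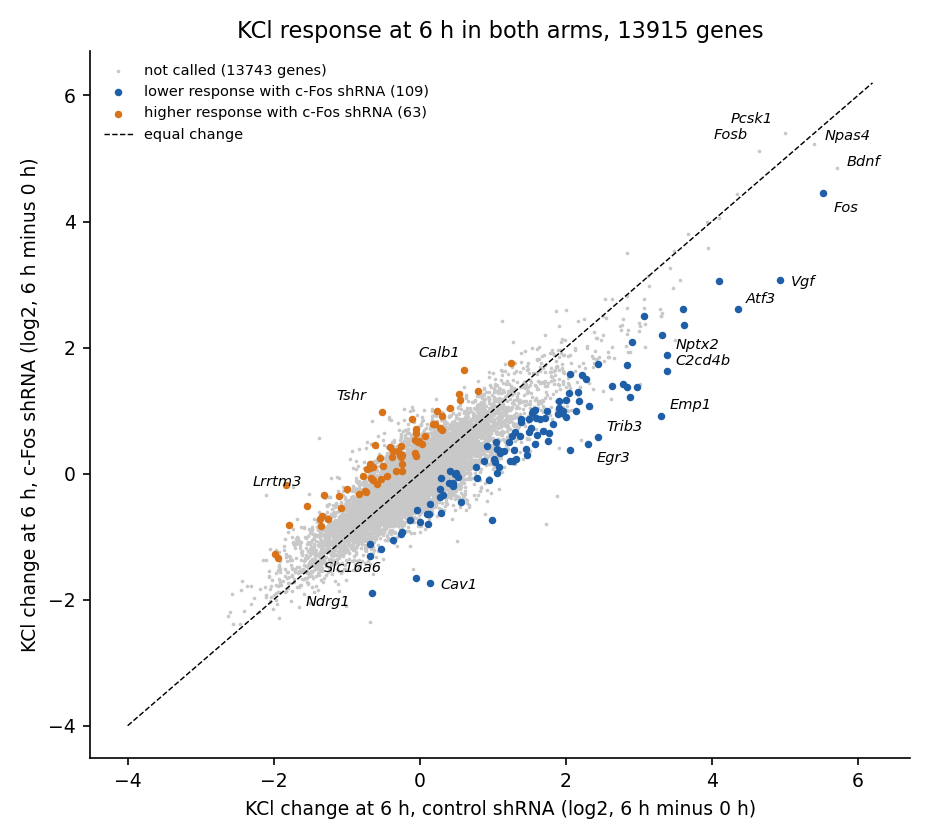
Each point is 1 of the 13915 genes tested, with its KCl change at 6 h in the c-Fos shRNA arm (vertical, log2) against that in the control shRNA arm (horizontal, log2). The dashed line marks equal change, and the 109 genes called lower (blue) lie below it and the 63 called higher (orange) above it. Fos, Vgf and Atf3 lie to the upper right below the line, while Fosb, Npas4, Bdnf and Pcsk1, also strongly raised, were not called.

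Promoter windows of 3 named genes with a lower response are shown because they carry, within 250 bases before and 50 bases after the gene's start, the letters of a motif that binds the factors in question. They are from the RefSeq promoter table (GRCm38.p6), 5′ to 3′ on the gene's own strand, with the motif in capitals. Emp1 lies at chr6:135362681-135362980 on the + strand, with the AP-1 motif TGACTCA present as its other strand TGAGTCA, whose first base is at -145 from the start. Met lies at chr6:17463707-17464006 on the + strand, with TGAGTCA at -54. Dusp1 lies at chr17:26508423-26508722 on the - strand, with the cAMP response element TGACGTCA, the site of the calcium-regulated factor CREB, at -143.
Emp1: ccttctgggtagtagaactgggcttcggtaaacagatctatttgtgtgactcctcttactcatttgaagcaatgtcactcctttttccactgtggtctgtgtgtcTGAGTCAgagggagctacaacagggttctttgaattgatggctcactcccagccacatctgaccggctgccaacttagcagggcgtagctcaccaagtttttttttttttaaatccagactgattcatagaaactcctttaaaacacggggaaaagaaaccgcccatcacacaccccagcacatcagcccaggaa
Met: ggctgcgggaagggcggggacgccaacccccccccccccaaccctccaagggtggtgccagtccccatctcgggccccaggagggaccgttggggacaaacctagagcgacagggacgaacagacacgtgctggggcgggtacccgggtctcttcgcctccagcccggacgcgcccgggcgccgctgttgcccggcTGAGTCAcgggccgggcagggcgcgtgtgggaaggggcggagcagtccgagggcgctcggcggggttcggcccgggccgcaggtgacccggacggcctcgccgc
Dusp1: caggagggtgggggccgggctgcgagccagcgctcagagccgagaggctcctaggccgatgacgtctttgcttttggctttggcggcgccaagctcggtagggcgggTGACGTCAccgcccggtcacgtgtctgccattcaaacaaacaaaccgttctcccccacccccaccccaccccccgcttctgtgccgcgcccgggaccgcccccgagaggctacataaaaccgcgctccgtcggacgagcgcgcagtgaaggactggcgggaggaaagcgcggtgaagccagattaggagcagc
Neither motif contains the other. Of the 85 genes called lower that had a promoter window, 7 (8.24%) held the AP-1 motif on either strand and 2 (2.35%) held TGACGTCA. Of the 52 called higher with a window, 2 (3.85%) held each. Among the 11215 tested genes with a window, the shares were 4.57% for AP-1 and 3.36% for TGACGTCA, and over all 32851 windows 5.2% and 1.79%. Among the 410 genes with a window that KCl raised by at least 1 (log2) averaged over both arms, they were 5.37% and 8.29%. Most genes with a lower response thus held neither motif in this window. These are matches of letters near the start site, and AP-1 sites lying further away were not searched.

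Emp1, which encodes a tetraspan membrane protein of the PMP22 family, had the largest called interaction. Its intensity was 96.1 and 88.8 with c-Fos shRNA at 6 h and 46.5 and 37.1 at 0 h, against 1105 and 874 with control shRNA at 6 h and 89.4 and 89.7 at 0 h. The 2 control arrays at 6 h stood far above the 6 others, while the c-Fos arrays at 6 h stayed near the level of unstimulated control neurons. Its log2 rise with KCl was 0.92 in the c-Fos arm and 3.31 in the control arm, an interaction of -2.39 ± 0.30 (adjusted p = 0.00435). A further, dimmer Emp1 probe set gave 0.565 and was not called, and with the mean of both the interaction was -0.91 and not called (adjusted p = 0.0977). Emp1 belongs to the list of genes described as AP-1 targets, and it was the one called of the 19 tested members, whose median was -0.131. With the block 4 members were called lower and 2 higher.

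The called genes were sorted by their KCl change in each arm. The interaction subtracts the control change, so genes with a lower response lean towards a control rise and towards a fall with c-Fos shRNA by construction, and the counts are a description. Of the 109, 92 rose with control shRNA, where 2328 genes (16.7%) rose and 3805 (27.3%) fell over all genes tested. With c-Fos shRNA 2236 genes (16.1%) rose and 3467 (24.9%) fell. Of the 109, 66 rose and 22 fell with c-Fos shRNA. Of the 92, 66 also rose with c-Fos shRNA, 21 had no called change there, and 5 fell. Among the 66 that rose in both arms, the log2 change with c-Fos shRNA was between 20.6% (Egr3) and 81.4% (Nr4a3) of that with control shRNA, with a median of 51.21%.

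Several of the 66 are secreted or synaptic proteins induced by activity. Vgf, the precursor of secreted neuropeptides, had intensities of 7013 and 6930.2 with c-Fos shRNA at 6 h and 778 and 865 at 0 h, against 7385 and 7629 with control shRNA at 6 h and 221 and 246 at 0 h. The arms were thus close at 6 h and apart at 0 h, where both c-Fos arrays were above both control arrays. The interaction was -1.86 ± 0.087 (adjusted p = 8.68e-07), with a difference between the arms of -0.10 at 6 h and 1.76 at 0 h (log2). Nptx2, a secreted pentraxin that clusters AMPA receptors, showed the other arrangement, at 1201 and 1464 with c-Fos shRNA at 6 h and 346 and 366 at 0 h, against 3275 and 3827 with control shRNA at 6 h and 262 and 400.0 at 0 h. Its arms overlapped at 0 h and were apart at 6 h, and the interaction was -1.504 ± 0.25 (adjusted p = 0.0156). A second Nptx2 probe set gave -1.455. Sv2c, a synaptic vesicle glycoprotein, had an interaction of -1.61 ± 0.29 (adjusted p = 0.0208), and Grasp, a postsynaptic scaffold protein, one of -1.26 ± 0.13 (adjusted p = 0.00204). Grasp reached 2181 and 2268 with c-Fos shRNA and 4632 and 4706 with control shRNA at 6 h. Stac, an adaptor with an SH3 domain, was called at -0.76.

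Bdnf, the neurotrophin whose transcript is among the most strongly induced by calcium, read 3833 and 4561 with c-Fos shRNA at 6 h and 93.6 and 183 at 0 h, against 6396 and 7169.9 with control shRNA at 6 h and 90.7 and 145 at 0 h. Both control arrays were higher at 6 h, but the 0 h arrays overlapped and differed widely within each group. The interaction of -0.87 ± 0.32 was not called (adjusted p = 0.237), and with the replicate block it was (adjusted p = 0.00568). Pcsk1, which encodes a prohormone convertase, gave 0.40 ± 0.21 and Scg2, a granin, 0.18 ± 0.092. Neither was called (adjusted p = 0.439 and 0.413), and Scg2 passed with the block (adjusted p = 0.0406). Of the 19 tested late effectors, 3 were called lower (Vgf, Nptx2 and Stac) and none higher, with a list median of -0.489. With the block 7 were lower and 2 higher. Of the 21 neuropeptides and granins, Vgf alone was called, and the median was -0.155, with 1 lower and 2 higher by the block.

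**Figure D2:**
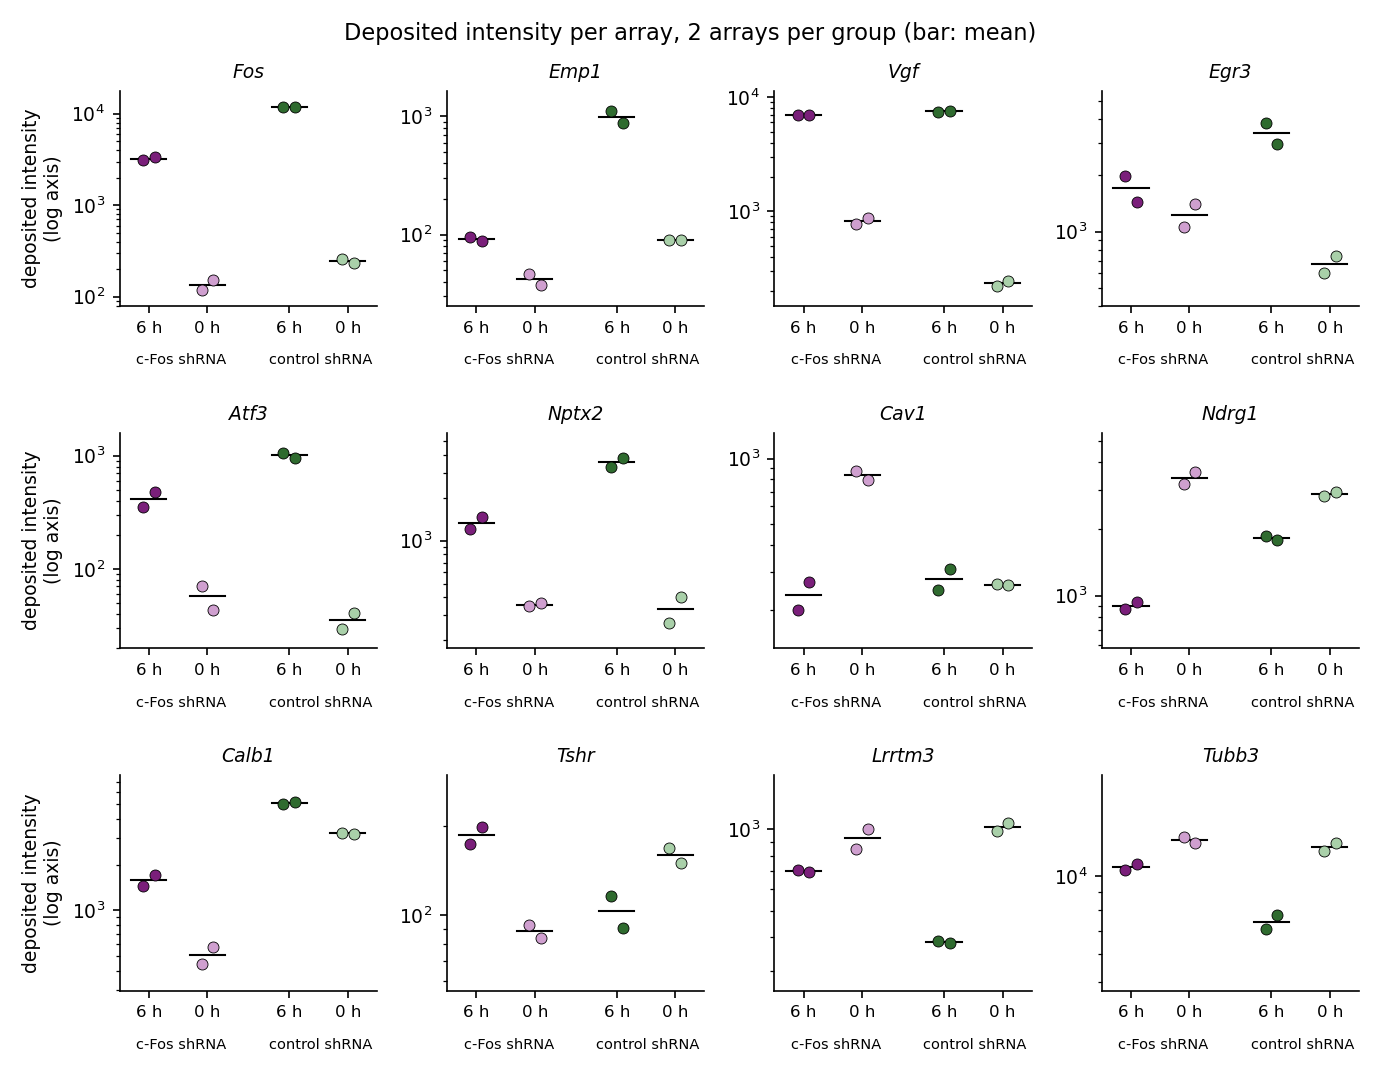
Deposited intensity (log axis) of 12 genes in each of the 8 arrays, with the c-Fos shRNA groups on the left and the control shRNA groups on the right of each panel and a bar at the mean of 2 arrays. Emp1 and Nptx2 differ between the arms mainly at 6 h, Vgf and Cav1 mainly at 0 h, and Calb1 lies lower with c-Fos shRNA at both times.

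Among transcription factors, Atf3, a stress- and activity-induced bZIP protein, had intensities of 349 and 479.7 with c-Fos shRNA at 6 h and 71.2 and 43.7 at 0 h, against 1060.4 and 948 with control shRNA at 6 h and 29.7 and 41.1 at 0 h. The arms did not overlap at either time, being lower with c-Fos shRNA at 6 h and higher at 0 h, although the 0 h difference was not called (adjusted p = 0.0786). Its interaction was -1.75 ± 0.27 (adjusted p = 0.00994), and the replicate numbers gave -2.45 and -1.05. It was the one member called among the 9 tested AP-1 subunits beside Fos, whose median was -0.618, and Batf was too dim to be tested. Fosl1 (-0.82 ± 0.21, adjusted p = 0.089), Fosl2 (-0.82 ± 0.23, adjusted p = 0.108) and Jun (-0.64 ± 0.23, adjusted p = 0.224) were not called. They passed with the replicate block, at adjusted p = 0.0129, 0.0167 and 0.000712, and Jdp2 at 0.049. Fosb went the other way at 0.47 ± 0.31 (adjusted p = 0.556), while Junb (0.067) and Jund (-0.18) lay near 0.

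The separate levels of the AP-1 genes show what these values rest on. Fosl2 read 5691 and 5493 with c-Fos shRNA at 6 h and 1201 and 1941 at 0 h, against 5362 and 5056 with control shRNA at 6 h and 722 and 899 at 0 h. The c-Fos arrays were the higher ones at both times, and by more at 0 h. Jun read 1482 and 1827 with c-Fos shRNA at 6 h and 1752 and 2181 at 0 h, against 1906 and 2203 with control shRNA at 6 h and 1288 and 1813 at 0 h. Both c-Fos arrays lay below both control arrays at 6 h, and the arms overlapped at 0 h. Fosb read 1344 and 1234 with c-Fos shRNA at 6 h, against 1075 and 635 with control shRNA at 6 h, and at 0 h 16.8 and 28.4 with c-Fos shRNA and 23.1 and 14.01 with control shRNA.

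Egr3, a zinc-finger early growth response factor, kept the smallest share of its KCl change among the 66. Its intensity was 1983 and 1449.7 with c-Fos shRNA at 6 h and 1064 and 1399 at 0 h, against 3798 and 2962 with control shRNA at 6 h and 599 and 745 at 0 h. The order of the arms turned round between the times, the c-Fos arrays being above the control arrays before KCl and below them after it. The interaction was -1.83 ± 0.25 (adjusted p = 0.00578), and a dimmer probe set of the gene gave 0.758 and was not called. With the mean of both probe sets Egr3 was at -0.54 and not called (adjusted p = 0.474). Of the 19 tested early transcription factors of the Egr, Nr4a and Klf families and others, Egr3, Klf9 (-0.72 ± 0.10) and the orphan nuclear receptor Nr4a3 (-0.57 ± 0.11) were called lower and none higher, with a list median of -0.165 and 4 lower and 2 higher by the block. Npas4, an activity-dependent factor, rose in both arms and had an interaction of -0.17 ± 0.13 (adjusted p = 0.641). Klf2 had the highest value of the list, 1.96 ± 0.86, with 0.70 from replicate 1 and 3.22 from replicate 2, and was not called (adjusted p = 0.332). None of the 10 other inducible bZIP factors was called by limma, with 3 at an unadjusted p under 0.05, all lower, and a median of -0.278. The block called 3 of them lower, Nfil3 among them (-0.81 ± 0.26, adjusted p = 0.166 without and 4.85e-05 with the block).

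Of the 18 lists, the inhibitors of MAP kinase signalling held the most calls. The Dusp genes encode phosphatases that remove the activating phosphates of MAP kinases, and the Spred proteins restrain Ras and Raf. Of 17 tested members of this list, 5 were called lower and none higher, against 0.783% lower over all genes tested, and the list median was -0.354. With the block 7 were lower. With control shRNA 14 of the 17 rose. Of the 530 genes that KCl raised by at least 1 (log2) averaged over both arms, 10.2% were called lower. Dusp6 read 3101 and 2924 with c-Fos shRNA at 6 h and 1289.7 and 1357 at 0 h, against 3392 and 3516 with control shRNA at 6 h and 750.2 and 933 at 0 h. The c-Fos arrays were the higher ones at 0 h and the lower ones at 6 h, and the interaction was -0.83 ± 0.13 (adjusted p = 0.0117). Dusp1, whose promoter is printed above, had -0.66 ± 0.12 (adjusted p = 0.0271), Dusp4 -0.77 ± 0.15, Spred3 -1.16 ± 0.20 and Spred2 -0.35 ± 0.070. Without the trend Dusp1, Dusp4 (both limma adjusted p = 0.0568) and Spred2 (0.0851) lost the call, while Dusp6 and Spred3 kept it. Spred2 also lost it with a median shift (adjusted p = 0.0745) and with the mean of its probe sets (-0.13, adjusted p = 0.9). These 5 were not among the genes called whichever array was left out. Dusp14 (-0.70, adjusted p = 0.19 without and 0.0127 with the block) and Spry4 (-0.31, adjusted p = 0.571) were not called. For Dusp1, Dusp4, Dusp6 and Spred3 the difference between the arms at 0 h was itself called, with c-Fos shRNA higher by 0.41, 0.45, 0.66 and 1.37 on the log2 scale.

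Among early signalling and effector genes, Rgs2, which speeds GTP hydrolysis by G protein alpha subunits, was the one called of 15 tested (-0.48 ± 0.079, adjusted p = 0.0152), and the list median was -0.273. Ptgs2, the inducible cyclooxygenase, gave -1.38 ± 0.43 and missed the threshold (adjusted p = 0.153), and passed with the block (adjusted p = 0.0278). Its 0 h arrays were dim, at 37.8 and 8.67 with c-Fos shRNA and 28.1 and 17.3 with control shRNA. Arc, a regulator of AMPA receptor endocytosis, gave -0.50 ± 0.26 (adjusted p = 0.435). In this list the block called 4 lower and none higher.

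Trib3, a pseudokinase induced by the integrated stress response, read 266 and 327 with c-Fos shRNA at 6 h and 183 and 215 at 0 h, against 549 and 466 with control shRNA at 6 h and 65.1 and 111 at 0 h. Before KCl the c-Fos arrays were the higher ones and after 6 h the lower ones, with no overlap at either time. The change of 0.57 with c-Fos shRNA was not called (adjusted p = 0.0905), that of 2.44 with control shRNA was, and the interaction was -1.87 ± 0.36 (adjusted p = 0.0304). Its call was lost with no further normalization (limma adjusted p = 0.0551) and with only the 8 arrays (adjusted p = 0.0646). Trib3 was also not among the genes called whichever array was left out. It was the one member called of 20 in the list of unfolded protein and integrated stress response genes, where 17 members had a value below 0, against 48.3% of all genes tested, and the median was -0.30. With the block 5 were called lower. Ddit3 (-0.50 ± 0.18) passed only with the block (adjusted p = 0.21 without, 0.0295 with), and Chac1 (-1.202 ± 0.52, adjusted p = 0.326) was not called.

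Metabolic and channel genes held a few calls. Slc2a1, the glucose transporter GLUT1, read 1575 and 1584 with c-Fos shRNA at 6 h and 519 and 445 at 0 h, against 2436 and 3228 with control shRNA at 6 h and 416 and 349.7 at 0 h. The c-Fos arrays were lower at 6 h and slightly higher at 0 h, where the difference was not called (adjusted p = 0.198), and the interaction was -1.12 ± 0.23 (adjusted p = 0.0424). Slc2a1 stayed called with the other normalizations and constants. Its call was lost without the filter (adjusted p = 0.0539), without the trend (adjusted p = 0.0641) and with the mean of its probe sets (adjusted p = 0.0585). Slc2a1 was also not among the genes called whichever array was left out. It was the one called of 16 genes of glucose uptake and glycolysis, with a list median of -0.210 and 5 called lower with the block. Kcnf1, a modulatory potassium channel subunit, was the one called of 17 voltage-gated potassium channel genes (-0.71 ± 0.11, list median -0.120, 4 lower with the block). None of the 17 ionotropic transmitter receptors was called by limma, with 1 at an unadjusted p under 0.05, a median of -0.026, and 1 called higher with the block. Cdkn1a, the cyclin-dependent kinase inhibitor p21, was the one called of 20 cell cycle inhibitors and p53 targets (-0.98 ± 0.13, adjusted p = 0.00578, list median 0.039), with 2 lower and 3 higher by the block. None of the 11 interferon response genes was called by limma, with 1 at an unadjusted p under 0.05, a median of -0.061, and 1 called lower with the block.

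**Figure D3:**
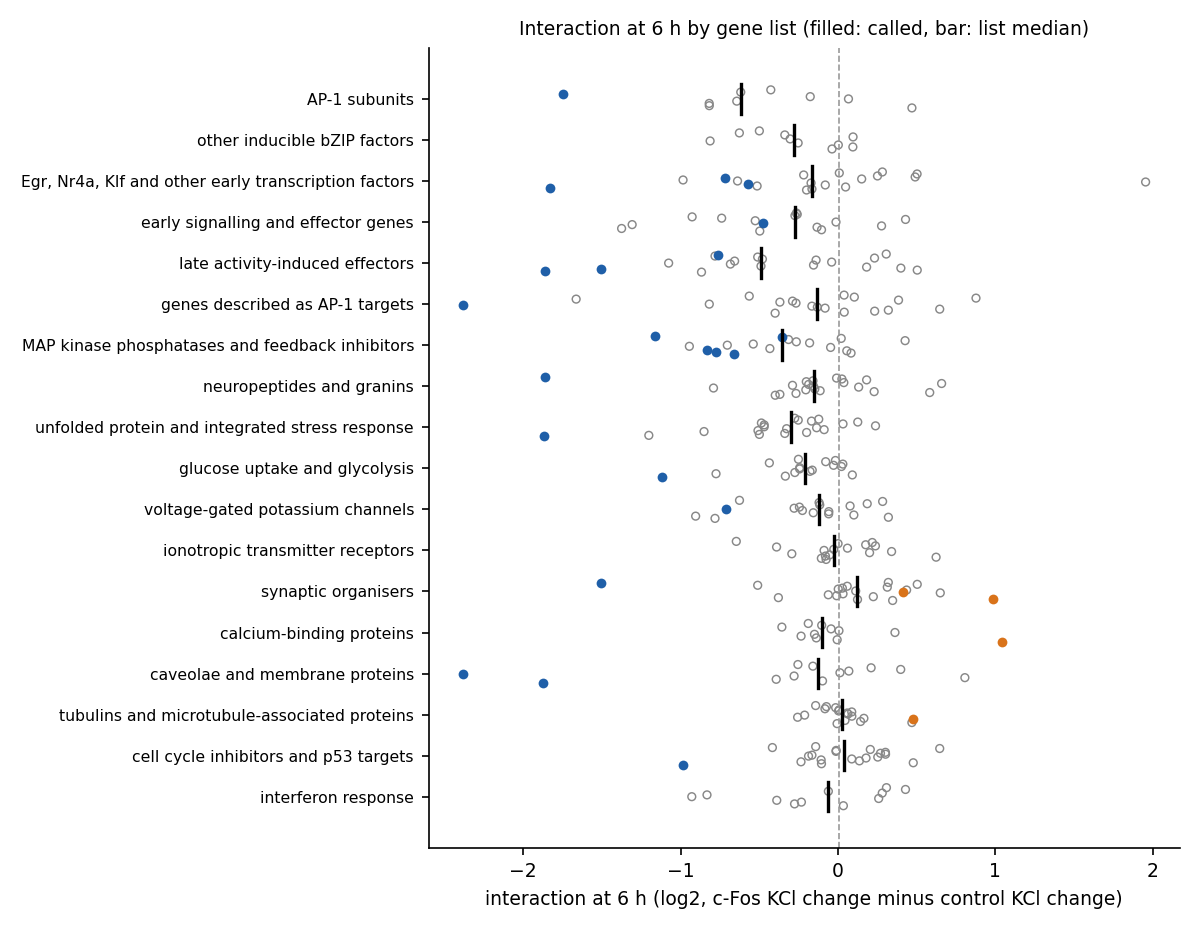
Interaction at 6 h (log2) of every tested member of 18 gene lists, one row per list. Filled points are called genes (blue lower, orange higher), open points are not called, the bar is the list median and the dashed line the median of all genes tested. The AP-1 subunits have the lowest list median (-0.618), and the synaptic organisers the highest (0.119).

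Further genes of large size lay outside the lists. C2cd4b, which encodes a C2 domain protein, read 278 and 329 with c-Fos shRNA at 6 h and 78.3 and 104 at 0 h, against 1164 and 1064 with control shRNA at 6 h and 88.9 and 104 at 0 h. Its arms overlapped at 0 h and were far apart at 6 h, with an interaction of -1.77 ± 0.24 (adjusted p = 0.00648). Ang, a secreted ribonuclease, followed the same arrangement, at 240.5 and 247 with c-Fos shRNA and 768 and 645 with control shRNA at 6 h (-1.67 ± 0.20, adjusted p = 0.00363). Lipg, endothelial lipase, had -1.46 ± 0.20 (adjusted p = 0.00648), where a second bright probe set gave -1.553 and a very dim one 1.458. With the mean of its probe sets Lipg was at -0.52 and not called (adjusted p = 0.236). Blnk, an adaptor best known from B cells, had -1.67 ± 0.31 (adjusted p = 0.0282), and Trim36, a RING-type ubiquitin ligase, -1.36 ± 0.16 (adjusted p = 0.00334). Chst15, a sulfotransferase of chondroitin sulfate, had -1.24 ± 0.22, Osbpl3, an oxysterol-binding protein relative, -1.24 ± 0.20, and Lonrf3, a RING finger protein, -1.24 ± 0.26. With the mean of probe sets Chst15 (-0.90, limma adjusted p = 0.262) and Osbpl3 (-0.77, adjusted p = 0.193) were not called, and Lonrf3 was (-1.43). Lonrf3 lost its call with no further normalization (adjusted p = 0.0793), without the filter (0.0539) and without the trend (0.0619).

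In 17 of the 109 genes with a lower response, KCl did not raise the gene with control shRNA: 10 had no called change there and fell with c-Fos shRNA, and 7 fell in both arms. Cav1, the coat protein of caveolae, read 198 and 268 with c-Fos shRNA at 6 h and 878 and 796 at 0 h, against 246 and 309 with control shRNA at 6 h and 262 and 261 at 0 h. The c-Fos arrays at 0 h stood alone, and the other 6 lay close together. The interaction was -1.87 ± 0.22 (adjusted p = 0.00334), from a fall of -1.74 with c-Fos shRNA and a change of 0.14 with control shRNA (adjusted p = 0.522). Slc16a6, a member of the monocarboxylate transporter family, read 315 and 317 with c-Fos shRNA at 6 h and 1109 and 1013 at 0 h, against 1913 and 1720.5 with control shRNA at 6 h and 1932 and 1818 at 0 h. It hardly differed between the times with control shRNA and was lower with c-Fos shRNA at both, with an interaction of -1.604 ± 0.16 (adjusted p = 0.00187). Shisal1 (-0.93 ± 0.19) and the chondroitin synthesis enzyme Csgalnact1 (-0.91 ± 0.16) likewise fell with c-Fos shRNA and had no called change with control shRNA. Of the 12 tested genes of caveolae and membrane proteins, Cav1 and Emp1 were called lower and none higher, and with the block 2 were lower and 1 higher.

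Ndrg1, a hypoxia- and stress-responsive gene, was the largest of the 7 that fell in both arms. It read 865 and 938 with c-Fos shRNA at 6 h and 3183 and 3629 at 0 h, against 1860.1 and 1791 with control shRNA at 6 h and 2806 and 2926 at 0 h. The fall was deeper with c-Fos shRNA (-1.896 against -0.66, log2), an interaction of -1.24 ± 0.13 (adjusted p = 0.00187). Lhfpl2 (-0.71 ± 0.13), Met, the receptor of hepatocyte growth factor (-0.69 ± 0.087), and Thyn1 (-0.68 ± 0.084) followed. With the mean of probe sets Lhfpl2 (-0.50, limma adjusted p = 0.111), Met (-0.52, adjusted p = 0.45) and Thyn1 (-0.34, adjusted p = 0.204) were not called. Met read 3136 and 3562 with c-Fos shRNA at 6 h and 6359 and 6250.4 at 0 h, against 3105 and 3420.5 with control shRNA at 6 h and 3714 and 3727 at 0 h, so that the arms overlapped at 6 h and were apart at 0 h.

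For the 63 genes with a higher response, the control KCl change is again subtracted in the interaction, so these counts too are a description. With control shRNA 41 of them fell, 10 rose and 12 had no called change. With c-Fos shRNA 32 rose, 16 fell and 15 had no called change. Lrrtm3, a leucine-rich synaptic organiser, read 709 and 695 with c-Fos shRNA at 6 h and 848 and 1006 at 0 h, against 388 and 381 with control shRNA at 6 h and 982 and 1057 at 0 h. The arms overlapped at 0 h, and at 6 h both c-Fos arrays were higher, giving an interaction of 0.98 ± 0.15 (adjusted p = 0.00954). Of its 3 other probe sets, 2 gave 0.392 and 0.397 and 1 gave -0.445, none of them called, and with the mean of all the interaction was 0.33 (adjusted p = 0.545). Slitrk1, also a synaptic organiser, had 0.41 ± 0.082 (adjusted p = 0.0346). Of the 20 tested synaptic organisers, these 2 were called higher and Nptx2 lower, and the list median was 0.119, with 2 lower and 4 higher by the block.

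Tubb3, the tubulin of the neuronal cytoskeleton, read 10418 and 10851 with c-Fos shRNA at 6 h and 12933 and 12447 at 0 h, against 7097 and 7751 with control shRNA at 6 h and 11811 and 12472 at 0 h. It fell in both arms and by less with c-Fos shRNA, with an interaction of 0.47 ± 0.071 (adjusted p = 0.00954). It was the one called of 18 tubulins and microtubule-associated proteins, whose median was 0.027, with 2 higher by the block. Mical3, a monooxygenase acting on the cytoskeleton (0.96 ± 0.19), Epb41l4b, a FERM domain protein (1.03 ± 0.19), Cdh8, a cadherin (0.84 ± 0.16), and Kif3b, a kinesin motor (0.75 ± 0.14), were called in the same direction. Itsn1, an endocytic scaffold, was called at 0.80 on its brightest probe set, but 6 of its 8 other probe sets gave values below 0.

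Calb1, the calcium buffer calbindin, read 1438 and 1711 with c-Fos shRNA at 6 h and 442 and 574 at 0 h, against 5031 and 5218 with control shRNA at 6 h and 3239.8 and 3209 at 0 h. All 4 c-Fos arrays lay below all 4 control arrays, and the gap was wider at 0 h. Its log2 rise with KCl was 1.65 in the c-Fos arm and 0.61 in the control arm, an interaction of 1.04 ± 0.16 (adjusted p = 0.00965). Its 3 other, dimmer probe sets gave 0.299, 0.055 and -0.345, and with the mean of its probe sets the interaction was 0.26 and not called (adjusted p = 0.602). It was the one called of 11 tested calcium-binding protein genes, with a list median of -0.103 and 1 lower and 2 higher by the block. Tshr, the thyrotropin receptor, read 173 and 197 with c-Fos shRNA at 6 h and 92.8 and 83.3 at 0 h, against 116 and 90.01 with control shRNA at 6 h and 168 and 149 at 0 h. It rose with c-Fos shRNA and fell with control shRNA, with an interaction of 1.496 ± 0.23 (adjusted p = 0.00994), while its 2 dimmer probe sets gave -0.153 and -0.160 and were not called. With the mean of its probe sets Tshr was at 0.39 (adjusted p = 0.589). Smc2os, an RNA from the strand opposite Smc2, was called at 1.65 ± 0.34 (adjusted p = 0.0398), with 180.2 and 245 with c-Fos shRNA and 7.16 and 15.4 with control shRNA at 6 h. Both control arrays at 6 h were dim, and the value was 2.61 with 1 added before the log and 0.79, no longer called (adjusted p = 0.0965), with 64 added. Its call was also lost with no further normalization, with a median shift, without the filter, without the trend, with only the 8 arrays, with the mean of probe sets and whichever 1 of the 8 arrays was left out, and it held with the block. Cdk12, a kinase of RNA polymerase II (0.98 ± 0.17), rose with c-Fos shRNA alone, and Tgoln1, a protein of the trans-Golgi network (0.76 ± 0.12), rose in both arms.

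The interaction can be read as the difference between the arms at 6 h minus that at 0 h, and the 172 genes reached it by different routes. Over all genes tested, c-Fos shRNA was lower than control shRNA at 6 h in 1452 (10.4%) and higher in 1860 (13.4%), and at 0 h lower in 1428 (10.3%) and higher in 1675 (12.0%). Of the 109 genes with a lower response, 35 were lower at 6 h with no called difference at 0 h, C2cd4b, Atf3, Nptx2 and Sv2c among them. Their median difference was -0.973 at 6 h and 0.146 at 0 h (log2). Another 30 differed at 0 h alone, where c-Fos shRNA was higher, Vgf, Cav1, Chst15 and Dusp6 among them, with medians of -0.095 at 6 h and 0.711 at 0 h. In 21, Egr3 and Trib3 among them, c-Fos shRNA was lower at 6 h and higher at 0 h. In 13, such as Pik3r3, a regulatory subunit of PI3 kinase, and Ust, a uronyl sulfotransferase, it was higher at both times, and in 10, such as Emp1, Slc16a6 and Fos, lower at both. A called difference before KCl was thus present in 74 of the 109, and in 10 of these its direction worked against a lower response. The interaction subtracts the 0 h difference, so genes with a lower response lean towards higher c-Fos values at 0 h by construction. These counts are a description, and a difference that was not called also enters the interaction. Among the 63, 22 were lower with c-Fos shRNA at 0 h alone, 16 higher at 6 h alone, 16 lower at both times (Calb1 among them), 5 lower at 0 h and higher at 6 h, and 4 higher at both. Pik3r3 and Ust were chosen after their values were seen.

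**Figure D4:**
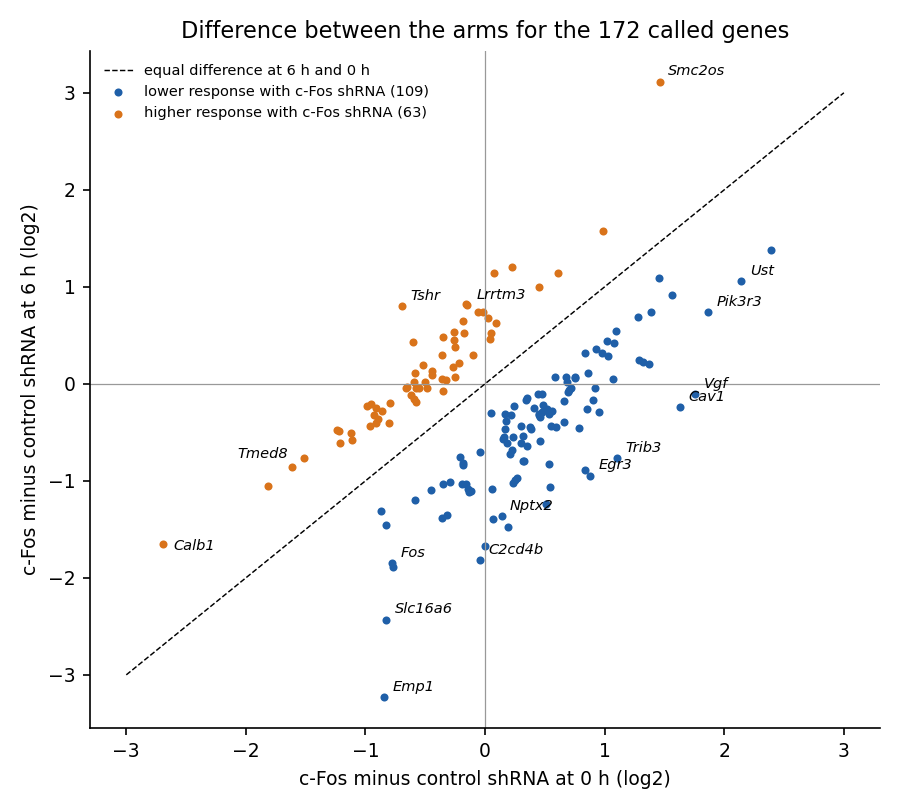
Difference between c-Fos and control shRNA (log2) at 6 h (vertical) against 0 h (horizontal) for the 172 called genes; the dashed line marks an equal difference. Nptx2 and C2cd4b lie near 0 at 0 h and well below 0 at 6 h, Vgf and Cav1 lie far to the right at 0 h and near 0 at 6 h, and Calb1 is below 0 on both axes.

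Genes that respond to KCl were also taken as a class, by a called change of at least 1 (log2) at 6 h averaged over both arms, leaving out Fos. Of 530 such genes raised by KCl, 54 (10.2%) were called lower and 3 (0.566%) higher, against 0.783% and 0.453% over all genes tested. The median change was 1.294 in the c-Fos shRNA arm and 1.533 in the control arm, the median interaction was -0.227, and 372 (70.2%) had a value below 0. Of 647 genes lowered by KCl, 1 was called lower and 8 (1.24%) higher, with median changes of -1.212 in the c-Fos shRNA arm and -1.328 in the control arm, and a median interaction of 0.104. With the block the counts were 156 lower and 27 higher among the raised genes, and 21 lower and 71 higher among the lowered ones. The averaged change and the interaction are computed from the same arrays, so these shares describe the class and are not an independent test.

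The same contrast at the earlier times shares its 0 h arrays with the contrast at 6 h, and its values are given side by side. In the order 1, 3 and 6 h, Emp1 had interactions of 0.22, -1.36 and -2.39 and was called at 6 h alone (adjusted p = 0.0829 at 3 h). Vgf had -1.61, -1.696 and -1.86 and was called at each time. C2cd4b had -0.71, -1.96 and -1.77, and Nptx2 -0.23, -1.39 and -1.504, both called at 3 h and 6 h and not at 1 h. Ndrg1 had -0.14, -0.28 and -1.24 and was called at 6 h alone. Calb1 had 0.70, 1.14 and 1.04, called at 3 h and 6 h, and Lrrtm3 -0.012, 0.60 and 0.98, called at 6 h alone. For Fos the values were 0.024, -0.97 and -1.08, and it was called at 3 h and 6 h.

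**Figure D5:**
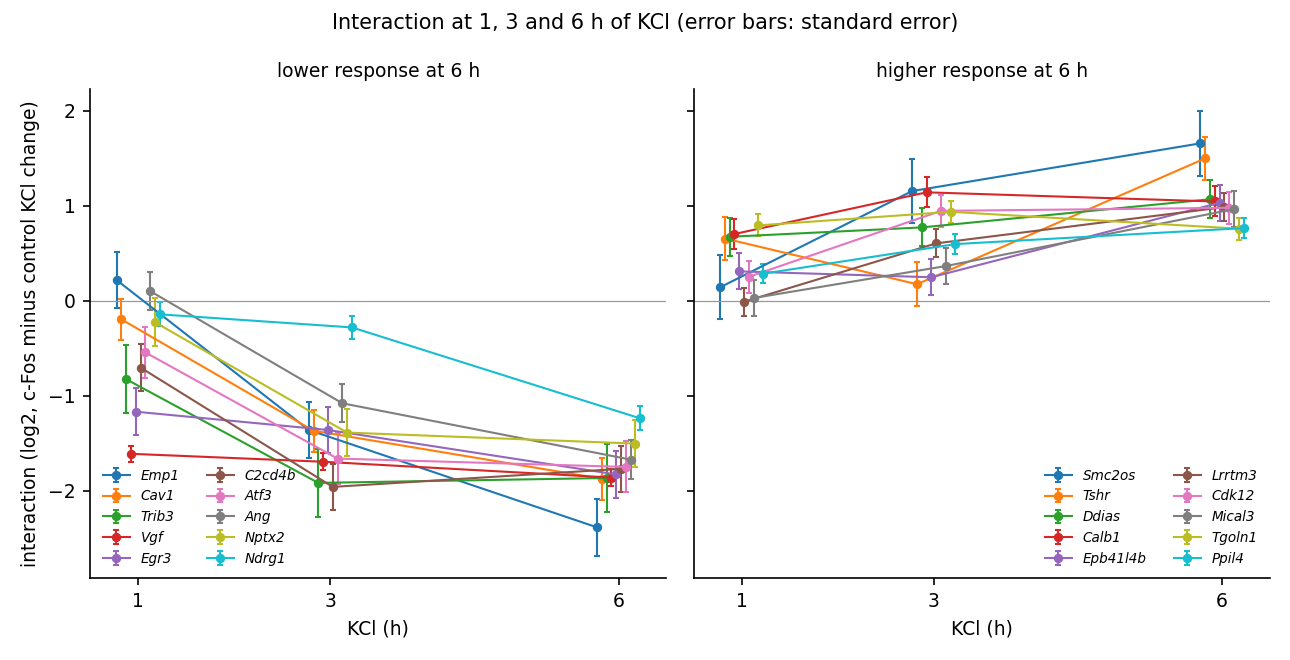
Interaction (log2, with standard error) at 1, 3 and 6 h of KCl for 10 genes with a lower and 10 with a higher response at 6 h; points of a time are set slightly apart so that they can be seen. Vgf is already far below 0 at 1 h, Emp1, Cav1 and Nptx2 lie near 0 at 1 h, and Ndrg1 is well below 0 at 6 h alone.

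Markers of the cell types a cortical culture can hold were set beside these results. The summed intensity of 8 neuronal markers was 68939 to 80079 in the c-Fos arrays and 73085 to 85253 in the control arrays. No interaction was called among the tested markers of astrocytes (8 genes), microglia (2 of 8 tested), oligodendrocyte lineage cells (6), blood vessels and fibroblasts (5), progenitors (7), excitatory neurons (7) or inhibitory neurons (9). Over all genes tested 1.24% were called, so a lack of calls among so few genes says little. Of all 52 tested markers, the neuronal one Tubb3 was called, and 1 passed an unadjusted p under 0.05 in the lower and 7 in the higher direction. Of all 13915 genes tested, 924 and 1025 did. With the block, 4 of the 7 excitatory markers, 1 of the inhibitory ones and 2 of the general neuronal ones were called higher, and 1 progenitor marker lower. Over all genes tested the block called 5.73% higher and 5.63% lower. The excitatory markers summed to 22378 and 22546 with c-Fos shRNA at 0 h, against 29222 and 28032 with control shRNA at 0 h, and 4 of the 7 were called lower there, against 10.3% of all genes tested. At 6 h the sums were 26865 and 25252 with c-Fos shRNA, against 29021 and 27494 with control shRNA. In whole cultures, fewer cells of a type and less RNA per cell cannot be told apart, and the part of these markers in the called interactions was not tested. The vascular markers summed to 466 to 608 in the arrays numbered replicate 1 and to 1283 to 1547 in those numbered replicate 2, in both arms. Microglial markers summed to between 184 and 242 in all 8 arrays. Of the array's own control probe sets, that for the 3′ part of 18S ribosomal RNA read 4191 to 4558 in the c-Fos arrays and 4805 to 5602 in the control arrays. The arms overlapped for its 5′ part (5352 to 6827 against 6092 to 9307) and its middle part (2529 to 3551 against 3185 to 5012). For both of these, replicate 1 was above replicate 2 in each of the 4 groups. The part of 18S signal in the results was not tested. The control probe set for the 3′ part of beta-actin read 18284 to 19493 in the c-Fos arrays and 18469 to 19758 in the control arrays.

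A gene was read from its brightest probe set. Of the 172 called genes, 120 had other probe sets, 257 in all, of which 202 gave an interaction of the same sign. Among the 185 with a mean intensity of at least 100, 161 did. No other probe set was called in the opposite direction. Few of the 257 were called in either direction, with limma p-values adjusted over all 45037 probe sets that are not array controls. The lack of opposite calls is therefore no sign of agreement. In 38 genes at least 1 other probe set had the opposite sign, Emp1, Egr3, Calb1, Tshr and Itsn1 among them. With the mean of all probe sets of a gene, 47 of the 77 called genes named besides Fos were no longer called. Among these, Nr4a3 was at -0.21, Spred2 at -0.13, Thyn1 at -0.34, Epb41l4b at 0.42, Cdk12 at 0.41 and Tgoln1 at 0.33.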

How the data were processed

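Per the labels' protocols, total RNA was purified with Trizol and RNeasy, and 10 µg of labelled cDNA went onto each Affymetrix mouse genome 430 2.0 array. The authors deposited 1 linear intensity per probe set and array, from 0.51 to 23935.63 over the 16 arrays, with array medians of 104.75 to 118.56. How probe signals were summarised and scaled is not given in the sources used here. Detection calls were not used here, so dim probe sets carry no floor. With 2 arrays a group, array number sets the precision.

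Of 45037 probe sets that are not array controls, 34945 carry 1 gene in the platform annotation, 932 carry several and 9160 carry none. RefSeq gene records (GRCm38.p6) matched 34741. Each of 18193 genes was read from its probe set with the highest mean, and the 13915 above the 30th percentile were tested. The log2 of the deposited intensity plus 16 was quantile normalized. limma 3.58.1 in R 4.3.3 fitted 8 group means to all 16 arrays (8 residual degrees of freedom, lmFit and eBayes with an intensity trend). Adjusted p-values are Benjamini-Hochberg over all 13915 genes in a contrast, and a gene was called under 0.05. On simulated arrays the interaction fit called 58% of genes changed by 1 and 90% of those changed by 2 (log2). The simulated noise was independent between arrays and held no pairing by replicate number, so these shares need not hold for the real arrays.

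The replicate numbers come from the array titles. Deviations of same-numbered arrays from their group means correlated across genes in all 28 pairs of groups, from 0.3641 to 0.5958, and in the 6 pairs of the 4 groups used here from 0.4007 to 0.4878, so the numbers were taken to pair the arrays. The main fit has no block, so its p-values and standard errors leave this pairing out. The blocked value is given where it changes a call or a count. Named genes were Fos, the 20 largest called interactions in each direction, up to 4 of each class by the control KCl change, members of the lists, and genes whose probe sets disagree. Pik3r3 and Ust, and the genes whose KCl changes were called in opposite directions, were added after their values were seen. The comparison, the gene lists and the promoter motifs were chosen with earlier results of these data known, and are no independent support. Alternatives changed the normalization, the constant added before the log, the filter on dim genes, the trend, the arrays in the fit, the probe set rule and the block.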

Additional observations from a re-analysis of the deposited data

Results flagged for a closer look

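The KCl response at 6 h differed between the arms in 172 genes by the limma interaction test (109 lower, 63 higher with c-Fos shRNA). In 15 of them the KCl changes of the arms were themselves called in opposite directions, a number not set against all genes tested. With c-Fos shRNA 5 of these fell and with control shRNA they rose: Htra4, a serine protease, had an interaction of -1.72, Txndc5, a protein disulfide isomerase, -1.01, Ankrd28 -0.66, Ro60, an RNA-binding protein, -0.65, and Rfk, riboflavin kinase, -0.52. Htra4 read 45.7 and 59.6 with c-Fos shRNA at 6 h and 81.4 and 116 at 0 h, against 96.9 and 127 with control shRNA at 6 h and 43.5 and 52.9 at 0 h. Txndc5 read 1146 and 1218 with c-Fos shRNA at 6 h and 1597 and 1641 at 0 h, against 357 and 519 with control shRNA at 6 h and 289 and 319.5 at 0 h, so that all 4 c-Fos arrays lay above all 4 control arrays.

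The other 10 rose with c-Fos shRNA and fell with control shRNA. The interaction was 1.5 for Tshr, 1.07 for Ddias, 0.83 for Lztfl1, 0.72 for Pikfyve, a phosphoinositide kinase, and 0.69 for Irs1, an insulin receptor substrate. It was 0.66 for Kti12, 0.64 for Ttc9c, 0.58 for Cnot4, a ubiquitin ligase associated with the CCR4-NOT complex, 0.54 for Pcgf3, a Polycomb group protein, and 0.52 for Gtf3c3, a subunit of transcription factor IIIC. Irs1 read 1839 and 1839.9 with c-Fos shRNA at 6 h and 1218 and 1521 at 0 h, against 1764 and 1664 with control shRNA at 6 h and 2031 and 2061 at 0 h. The c-Fos arrays were slightly above the control arrays at 6 h, where the difference was not called (adjusted p = 0.444), and below them at 0 h.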

How the results depend on the processing

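All 172 called interactions kept their direction under each change of normalization, constant, trend and fitted arrays, under the block and without any 1 array, and 170 of them with the mean of a gene's probe sets. The block and the trend do not change the estimate, so its direction there was fixed in advance. The 172 were also chosen on these arrays, so the kept directions are a description. The count of calls depends more on the choices. The replicate block gave 1582 calls (784 lower, 798 higher), the block with only the 8 arrays at 0 and 6 h 983 (497 and 486), and the block with a median shift 1278 (754 and 524). Without a block, only the 8 arrays gave 13 (13 lower and 0 higher, with 840 higher at an unadjusted p under 0.05), and the mean of all probe sets 78 (60 and 18). Calls of a higher response fell to 33 with no further normalization, 33 with a median shift and 35 without the trend. With the block, 5779 genes differed between the arms at 6 h and 5396 at 0 h, against 3312 and 3103 without it. Among genes raised by KCl, 54 were called lower, against 156 with the block, 8 with only 8 arrays, 33 with the mean of probe sets, 137 with block and 8 arrays and 151 with block and median shift. Among genes lowered by KCl, 8 were called higher, against 4 with no normalization, 4 with a median shift, 3 with a constant of 64, 5 without the filter, 71 with the block, 0 with only 8 arrays, 3 without the trend, 3 with the mean of probe sets, 51 with block and 8 arrays and 61 with block and median shift. Fos was not called with only 8 arrays (-1.09). Of the 77 named called genes besides Fos, 67 lost the call with only 8 arrays. With the mean of probe sets 46 lost it in the same direction (Emp1 -0.91, Lipg -0.52, Tshr 0.39, Lrrtm3 0.33, Calb1 0.26), and Itsn1 turned to -0.02. Junb, not called, ran from -0.02 (without control shRNA 6 h replicate 2) to 0.15 when 1 array was left out. The fits with fewer arrays have fewer degrees of freedom; the cause of the other changes was not tested. Every one of the 77 stayed called with the block, so it ended no call.

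Without 1 array, the calls ranged from 40 to 95, lower ones from 32 to 70 and higher ones from 8 to 28. KCl changes were called in 4384 to 5716 genes with c-Fos shRNA and 5005 to 6072 with control shRNA. Arm differences were called in 2089 to 3233 genes at 6 h and 1868 to 3145 at 0 h. Among raised genes 20 to 40 were called lower, among lowered genes 0 to 5 higher, and Fos ran from -1.19 to -0.97. An alternative that leaves a group with 1 array assumes that it varies like the other groups. Signal over background limits the dim genes, such as Htra4, Blnk and Smc2os.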
